A study of Mus musculus with 12 samples.

Results

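The amino acid transporters described here are the 42 protein-coding members of the gene families SLC1, SLC3, SLC7, SLC36, SLC38 and SLC43. They were chosen by gene symbol, with earlier results of these data known, out of 56065 genes in the count table. Of these 42 members, 31 were among the 17893 genes with enough counts to be tested. Bulk RNA-sequencing was performed on submandibular glands (SMGs) from mice aged 8 weeks, with 3 females and 3 males of each genotype: wild-type C57BL/6J and C57BL/6J-Pou2f3-/-, the latter called knockout below. The knockout removes Pou2f3, the transcription factor that tuft cells (TCs) need, and it is constitutive, so that any other cell that uses the gene lacks it as well. The comparisons ask how loss of TCs changed these genes in each sex, and how the sexes differed in each genotype.

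Amino acids cross membranes on carriers that differ in their substrates and in what drives them. SLC1 carriers take up glutamate, or exchange alanine, serine, cysteine and glutamine, along a sodium gradient, whereas SLC38 carriers bring in glutamine and other small neutral amino acids together with sodium. SLC7 proteins either carry arginine and lysine on their own or act as light chains that need an SLC3 heavy chain to reach the plasma membrane, SLC36 carriers move small amino acids, often with protons and often at the lysosome, and SLC43 carriers let large neutral amino acids pass in either direction. The SMG is an exocrine gland whose acinar cells secrete protein into saliva. In rodents the granular convoluted tubules, which secrete growth factors and kallikreins, are far larger in males.

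Total counts per library ran from 47032175 to 67882207. Where a gene had no count, as many as 3 remain possible, which is 0.0399 to 0.0782 CPM. CPM here scales a count to the effective size of its library, which is the total multiplied by the TMM scaling factor from edgeR. Pou2f3 was at or near 0 in every library, knockout and wild type alike (0 to 2.81 normalized counts in knockout and 0 to 8.21 in wild type), so that it does not check the labels, and Gnat3 and Il25, other TC markers, were at 0 in all 12. Of the 10 TC markers 4 had enough counts to be tested, and in knockout females none of these fell and Avil rose, with summed counts of 1311 to 1418 against 1028 to 1378 in wild-type females. The acinar markers Aqp5 and Pip and the convoluted tubule marker Egf were present in all libraries. Muc19, a mucin of the sublingual gland, reached 427285 normalized counts in wild-type male 3 and 283335 in knockout female 3 against at most 10072 elsewhere, and the parotid genes Bpifa2 and Amy1 were highest in knockout male 2. Adipocyte markers were highest in wild-type female 3, knockout male 2 and knockout male 3. Counts of called members were therefore also taken without the first 3 and without the last 3 of these libraries. In bulk tissue, fewer cells of a type and less RNA per cell cannot be told apart.

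Promoters are shown for the carriers on which the results turn and for those that hold a site for ATF4, the transcription factor of the amino acid response. The window ran from 250 bases before to 50 after the start of the canonical transcript (GRCm39, read on the strand of the gene). The site searched was TGATGNAA on both strands, and its matches are in capitals. Slc7a11, the cystine carrier, held it on both strands, starting 65 bases (same strand) and 46 bases (opposite strand) before the start site, in chr3:50398014-50398313, minus strand. Slc38a1, which fell in knockout females and was lower in males, held it 56 bases before the start site in chr15:96540229-96540528, minus strand. Slc7a5 (chr8:122634384-122634683, minus strand) and Slc7a8 (chr14:55019403-55019702, minus strand), the light chains with the strongest genotype and sex differences, held no such letters in this window.
Slc7a11: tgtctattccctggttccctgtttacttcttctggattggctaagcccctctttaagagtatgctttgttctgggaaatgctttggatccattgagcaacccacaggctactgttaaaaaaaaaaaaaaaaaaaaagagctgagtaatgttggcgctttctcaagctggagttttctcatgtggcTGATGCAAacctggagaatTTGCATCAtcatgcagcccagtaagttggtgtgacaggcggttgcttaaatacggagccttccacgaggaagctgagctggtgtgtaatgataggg
Slc38a1: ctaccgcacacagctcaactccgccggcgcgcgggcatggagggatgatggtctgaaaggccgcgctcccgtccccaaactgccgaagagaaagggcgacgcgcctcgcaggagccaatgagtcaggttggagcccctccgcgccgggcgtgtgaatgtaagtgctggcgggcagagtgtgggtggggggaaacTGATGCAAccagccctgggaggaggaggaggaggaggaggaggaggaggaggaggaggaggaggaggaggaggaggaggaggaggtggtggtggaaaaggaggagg
Slc7a5: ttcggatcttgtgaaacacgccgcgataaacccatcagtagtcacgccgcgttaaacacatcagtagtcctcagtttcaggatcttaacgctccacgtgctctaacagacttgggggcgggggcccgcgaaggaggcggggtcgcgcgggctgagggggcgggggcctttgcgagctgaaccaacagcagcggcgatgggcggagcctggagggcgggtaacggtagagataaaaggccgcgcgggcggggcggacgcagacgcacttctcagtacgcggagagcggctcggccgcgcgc
Slc7a8: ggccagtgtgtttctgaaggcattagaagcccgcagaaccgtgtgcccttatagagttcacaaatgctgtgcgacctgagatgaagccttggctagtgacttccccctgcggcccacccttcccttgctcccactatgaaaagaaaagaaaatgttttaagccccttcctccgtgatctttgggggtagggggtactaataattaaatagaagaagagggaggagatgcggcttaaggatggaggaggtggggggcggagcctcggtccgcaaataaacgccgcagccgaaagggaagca
Across the members 2 of 42 windows (4.76%) held the site, beside 823 of 21599 windows (3.81%) of all protein-coding genes. All 42 members had a window, with a median GC content of 55.16% against 54.33% over all genes.

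In knockout females 9 transporters were down-regulated and 2 up-regulated against wild-type females (edgeR, Benjamini-Hochberg adjusted p under 0.05). Those down-regulated were the light chain Slc7a5 and its heavy chain Slc3a2, the cationic carriers Slc7a1 and Slc7a2, the SLC1 carriers Slc1a3 and Slc1a4, and Slc38a1, Slc38a10 and Slc36a4. The up-regulated members were the heavy chain Slc3a1 and the lysosomal arginine sensor Slc38a9. Of the tested members 29.0% fell and 6.45% rose, beside 19.3% and 17.6% of all genes tested. Under upper-quartile scaling, which moved the median of all genes by 0.10 (log2), 9 fell and 4 rose. Of all 17893 genes tested, 2679 fell and 3962 rose under that scaling, against 3453 and 3158 under TMM scaling. The median log2 fold change was −0.22 over the 31 members, −0.08 over protein-coding genes and 0.03 over all genes. Acinar markers moved in the same comparison: 4 of 12 fell and none rose, and their summed count was 21778755 to 34524722 in wild-type and 12634687 to 15063626 in knockout females. Markers of other cell types also fell with none rising, with 4 of 11 for ducts, 3 of 7 for basal and myoepithelial cells (10279.7 to 13754 in wild type against 8673 to 9719.6 summed), 3 of 8 for macrophages and 3 of 7 for adipocytes, whereas 2 of 8 convoluted tubule markers rose. Of 8 endothelial and 2 tested skeletal muscle markers 1 each fell, and of 7 nerve and glia markers 1 rose. Summed counts overlapped for ducts (334260 to 578943 in wild type against 338267 to 548088), and also for tubules. They overlapped too for macrophages (4796 to 11071 against 4015 to 6075) and adipocytes (1718 to 8672 against 1357 to 2879.6). The highest of these were in wild-type female 1 for macrophages and wild-type female 3 for adipocytes. The part of these cell types in the fall of the transporters was not tested.

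Between knockout and wild-type males no member was called by edgeR, beside 0.235% of all genes, and 5 of the 31 had an unadjusted p under 0.05. DESeq2 called 2 members lower, Slc7a2 and Slc1a2, beside 1.03% of its genes in that direction. The same 2 were called when knockout male 1 was left out and when low counts were not filtered. Those 2 fits called 312 and 167 of all genes lower, against 24 with all 12 libraries and the filter. The median log2 fold change of the members was −0.20, against −0.03 over protein-coding genes. All 3 knockout males were below all 3 wild-type males for 6 of the 31 members and above them for 1, beside 7.95% and 6.51% of all genes.

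The genotype difference itself differed between females and males for 8 members by the interaction term (edgeR, adjusted p under 0.05). The change in females was the more negative for 6 of them (Slc7a5, Slc3a2, Slc7a1, Slc1a3, Slc36a4 and Slc36a2) and the more positive for 2 (Slc3a1 and Slc38a9), beside 12.4% and 13.4% of all genes. These counts were 5 and 4 under upper-quartile scaling and under scaling on protein-coding genes. They were 7 and 1 under RLE scaling and without the 20 most abundant genes. Over all genes the negative and positive calls were 2214 and 2390 under TMM scaling. Upper-quartile scaling gave 1757 and 2832 over all genes, and scaling on protein-coding genes 1735 and 2677. RLE scaling gave 2603 and 2201, and leaving out the 20 most abundant genes 2828 and 2145. Without either set of 3 libraries, no member was called for this term, but then only 3 (other-gland genes) and 0 (adipocyte markers) of all genes were. The latter set leaves 1 knockout male, which is assumed to vary like the other groups. All 7 adipocyte markers and 5 of 8 macrophage markers were called with a negative term in the fit of all 12 libraries, and their part in the members' terms was not tested. The difference for Slc7a5 was −1.45 and −1.39 on the log2 scale in those fits, against −1.27 with all 12 libraries.

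Between the sexes 14 transporters differed in wild type and 17 in the knockout. In wild-type mice 7 members were higher and 7 lower in males than in females, beside 20.5% and 16.0% of all genes, and in knockout mice 9 were higher and 8 lower, beside 23.2% and 20.3%. The latter counts were 6 and 10 under upper-quartile scaling, which moved the median of all genes by −0.16 (log2) in that comparison. They were 7 and 10 with scaling on protein-coding genes, and 6 and 9 with the authors' factors. Over all genes, 4155 were higher and 3635 lower under TMM scaling, and 3054 and 4985 under upper-quartile scaling. Scaling on protein-coding genes gave 3529 and 4268 over all genes, and the authors' factors 3667 and 2989. Of the 14 called in wild type, 11 were called in knockout in the same direction and none in the opposite one, beside 49.5% and 7.94% of the 6523 genes called in wild type over all genes. These comparisons share no library. Slc7a8, Slc7a6, Slc43a2, Slc38a7, Slc38a2, Slc38a10 and Slc7a2 were higher in males in both genotypes, and Slc1a3, Slc38a1, Slc36a4 and Slc43a1 were lower in both. All 8 convoluted tubule markers were higher in wild-type males, with a summed count of 4149830.4 to 7562917 against 55402 to 99848 in wild-type females, and 5 of 7 basal and myoepithelial markers were higher and 1 lower. Acinar markers were lower for 7 of 12 and higher for none, with a summed count of 5050228 to 8333943 in wild-type males against 21778755 to 34524722 in wild-type females. Lower were also 5 of 8 endothelial, 5 of 8 macrophage and 6 of 7 adipocyte markers, and of 11 duct markers 4 were higher and 3 lower. In knockout males all 8 tubule and 6 of 7 basal and myoepithelial markers were higher than in knockout females. Of 12 acinar markers 6 were lower and 2 higher, and of 11 duct markers 7 were higher and 3 lower. Higher were also 5 of 7 adipocyte, 4 of 8 macrophage and 3 of 4 tested blood markers, whereas 6 of 8 endothelial markers were lower. The part of these cell types in the transporter differences was not tested. The wild-type females enter both the female genotype and the wild-type sex comparison.

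**Figure D1:**
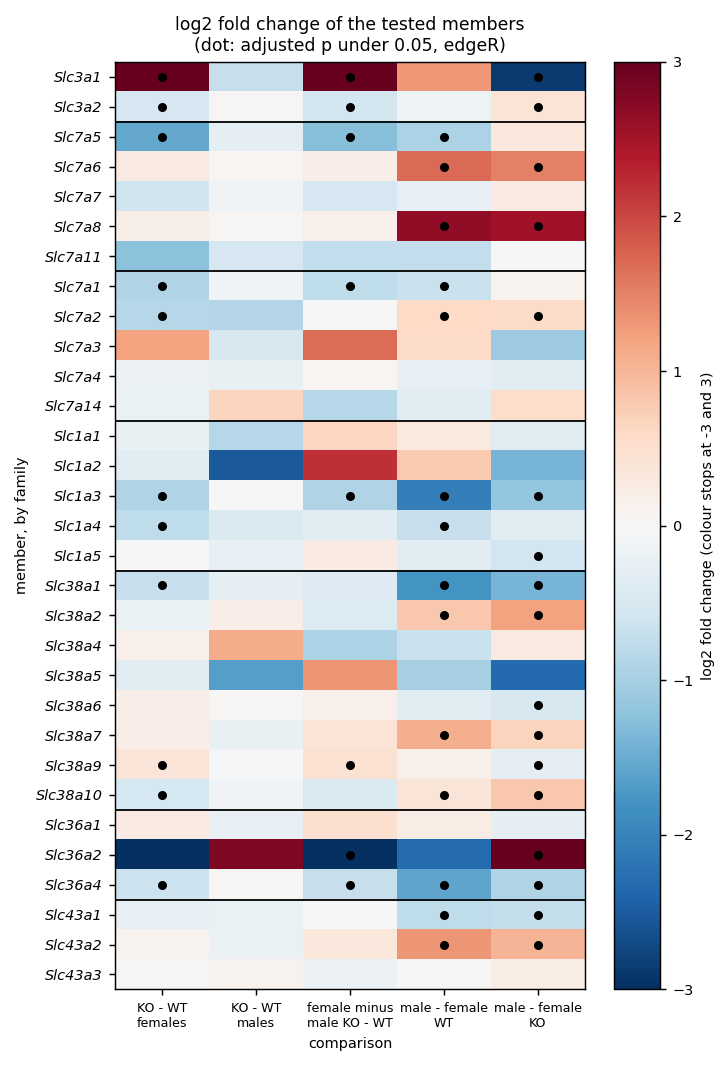
The log2 fold change of the 31 tested members (rows, by family) in 5 comparisons (columns), with a dot where the edgeR adjusted p was under 0.05. Blue cells with dots fill the first column for 9 members, no cell of the male genotype column has a dot, and the sex columns are split between red and blue.

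By level, measured as CPM for each kilobase of the longest protein-coding transcript, 21 members reached 1 in at least 1 group. In wild-type females the glutamine exchanger Slc1a5 (38.5 ± 1.47, SD, n = 3) and Slc38a2 (36.4 ± 3.16) led and did not differ beyond their spread. Slc7a5 (23.5 ± 5.02), Slc3a2 (22.8 ± 2.9) and Slc38a10 (19.5 ± 0.782) followed, of which Slc7a5 and Slc3a2 overlapped and Slc3a2 was above Slc38a10 in every mouse. Slc38a1 (14.2 ± 0.415) and Slc7a1 (11.3 ± 1.31) came next. The order was another in wild-type males, where Slc38a2 (63.3 ± 7.83) stood above Slc1a5 (30.7 ± 0.904), Slc38a10 (25.3 ± 2.83) and Slc3a2 (20.7 ± 1.5). Slc7a5 (12.2 ± 0.324) and Slc7a8 (8.4 ± 1.96) were lower than these in the same mice. The order of the means depended on the length used: over the union of exons the wild-type females had mean levels of 21.5 for Slc7a5, 19.6 for Slc1a5 and 17.6 for Slc38a2, with Slc7a1 (7.12) above Slc38a1 (5.74), and in wild-type males Slc38a10 (16.9) stood above Slc1a5 (15.7) and below Slc38a2 (30.6). Over the union of exons Slc7a5 overlapped Slc1a5, which it exceeded only in wild-type female 1, and Slc38a10 overlapped Slc1a5.

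**Figure D2:**
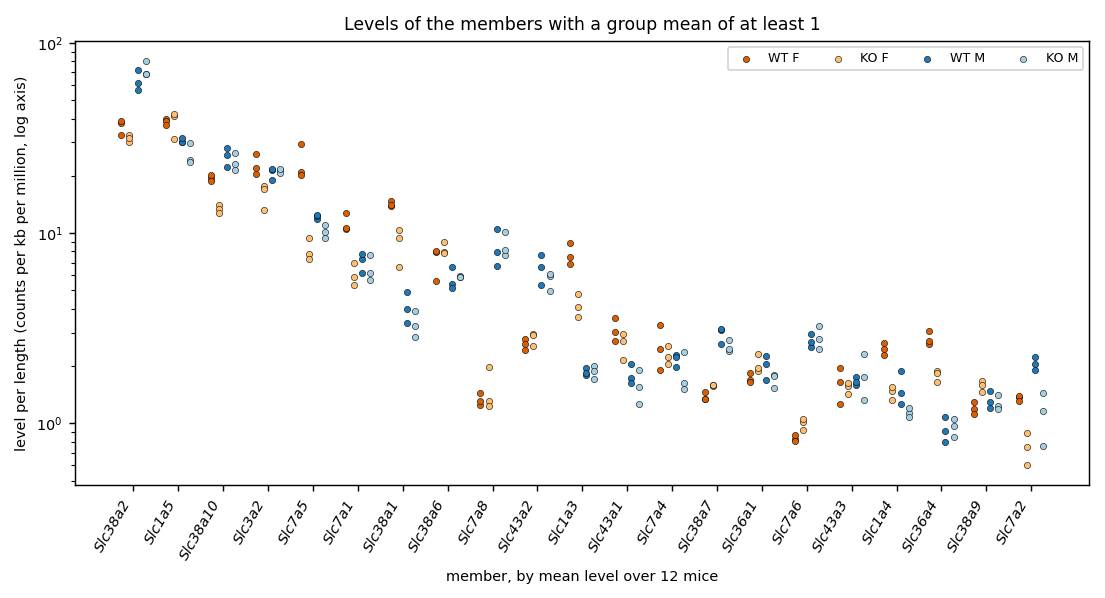
Level per length (log axis, CPM per kilobase) of the 21 members with a group mean of at least 1, each point 1 mouse. Slc38a2 is highest in males, Slc1a5 is as high as Slc38a2 in females, and Slc38a1 and Slc1a3 separate the sexes most among the members that are lower in males.

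Slc7a5 encodes LAT1, the exchanger that brings leucine and other large neutral amino acids into cells, and it changed most clearly with genotype (chr8:122607884-122634433, minus strand). Wild-type females had 5956, 4259 and 4125 normalized counts and knockout females 1575, 1485 and 1921. Every knockout female was thus below every wild-type female, with a log2 fold change of −1.53 (SE 0.14, adjusted p = 7.5e-05), or 2.88-fold lower. Wild-type males had 2408, 2511 and 2529.9 and knockout males 2055, 1924 and 2245 counts, groups that also did not overlap but whose difference of −0.26 (SE 0.14, adjusted p = 0.51) was not called. The interaction was −1.27 (SE 0.20, adjusted p = 0.0032). Wild-type males were below wild-type females, by −0.95 (SE 0.14, adjusted p = 0.00019), whereas between the sexes of the knockout the difference was 0.32 (SE 0.14, adjusted p = 0.079), called without the 20 most abundant genes and without knockout female 3 (adjusted p 0.0175 to 0.386 over the alternatives).

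Slc3a2 encodes 4F2hc (CD98), the heavy chain that Slc7a5 and 5 other light chains bind (chr19:8684245-8701108, minus strand). It gave 4667, 3918 and 3671 normalized counts in wild-type females and 3149, 2361 and 3067 in knockout females. The groups did not overlap, and the log2 fold change of −0.52 (SE 0.12, adjusted p = 0.0063) was smaller in size than that of Slc7a5. Males gave 3842, 3867 and 3390.0 in wild type and 3829, 3721 and 3905 in knockout, which overlapped. The interaction of −0.56 (SE 0.17, adjusted p = 0.034) was lost under upper-quartile scaling and under scaling on protein-coding genes, and also without wild-type male 1 or 3 or knockout male 2 or 3 (adjusted p at most 0.152 over the alternatives). Knockout males were above knockout females by 0.42 (SE 0.12, adjusted p = 0.015), a call lost under the same scalings and without either set of 3 libraries. Wild-type males and females were not called apart (−0.14 (SE 0.12, adjusted p = 0.39)), except with the authors' factors (adjusted p = 0.0482).

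Slc7a8 encodes LAT2, which exchanges small and large neutral amino acids, and had the strongest sex difference of the tested members in wild type (chr14:54959630-55019649, minus strand). Its normalized counts were 359.7, 416 and 381 in wild-type females and 1944, 3056 and 2298 in wild-type males. Males were 6.31-fold higher, at a log2 fold change of 2.66 (SE 0.20, adjusted p = 7.7e-07). Knockout mice showed the same order, with 379.9, 569.5 and 356 in females and 2216, 2349.6 and 2919 in males and a log2 fold change of 2.52 (SE 0.20, adjusted p = 1.3e-06). Genotype gave no call in either sex, with 0.18 (SE 0.20, adjusted p = 0.51) in females and 0.04 (SE 0.19, adjusted p = 0.97) in males.

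Slc7a6 (y+LAT2), which exchanges arginine for neutral amino acids, followed the same sex pattern. Wild-type females gave 190.0, 198 and 185 and wild-type males 581, 677 and 617 normalized counts, a log2 fold change of 1.71 (SE 0.13, adjusted p = 5.4e-07). Knockout females gave 212, 232 and 243 and knockout males 565, 638 and 746, a 2.84-fold difference (adjusted p = 1.5e-06). In both genotypes every male was above every female. Knockout females were above wild-type females without overlap, at 0.26 (SE 0.13, adjusted p = 0.13), which was called under upper-quartile scaling and with the authors' factors only (adjusted p 0.00318 to 0.416 over the alternatives). The related Slc7a7 (y+LAT1) was not called in any comparison. Wild-type female 1 stood apart for it, with 149.5, 58.4 and 51.2 counts in the wild-type females against 39.7 to 83.0 in the 9 other mice. The same mouse had 2510 counts of the macrophage marker Adgre1, against 246 to 628 in the other 11, and the highest summed macrophage marker count, at 11071. Knockout males 2 and 3 had sums nearly as high (10021 and 9325) with Slc7a7 counts of 80.6 and 59.9, within the range of the other mice. The part of macrophages in its Slc7a7 count was not tested.

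Slc7a11 (xCT), the cystine and glutamate exchanger whose promoter is shown above, stayed between 3.63 and 37.1 normalized counts, and no comparison was called. Slc7a10, a light chain that carries small neutral amino acids, was not tested, with 24.1 counts in wild-type female 3, 18.2 in knockout male 3 and at most 4.85 elsewhere.

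Expressed per length and summed, the light chains of 4F2hc had another make-up in males. Slc7a5 made up 91.1, 89 and 89.2% of the summed level in the wild-type females and 55.1, 47 and 53.2% in the wild-type males. Slc7a8 made up 3.86, 6.1 and 5.79% and 31.2, 40.2 and 33.9%. In wild-type females the light chains were thus almost all Slc7a5. Slc7a8 was the next largest part of the sum in both sexes, with a larger share in males. Knockout females had 75.7, 68.2 and 79% Slc7a5 and 12.8, 18.4 and 10.3% Slc7a8, and knockout males 49.2, 45.5 and 44.7% and 37.2, 39 and 40.8%. The summed level itself was 32.2, 23.6 and 22.8 in wild-type females and 10.2, 10.7 and 11.9 in knockout females. The males had 21.5, 26.3 and 23.4 in wild type and 20.6, 20.8 and 24.7 in knockout. Relative to the heavy chain, it was 1.23, 1.08 and 1.11 in wild-type females and 0.582, 0.812 and 0.697 in knockout females, which did not overlap. Males had ratios of 1, 1.22 and 1.23 in wild type and 0.961, 0.999 and 1.13 in knockout, which overlapped. With 3 mice in each group an exact permutation test cannot give a two-sided p under 0.1, so these shares and ratios are given without a test.

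**Figure D3:**
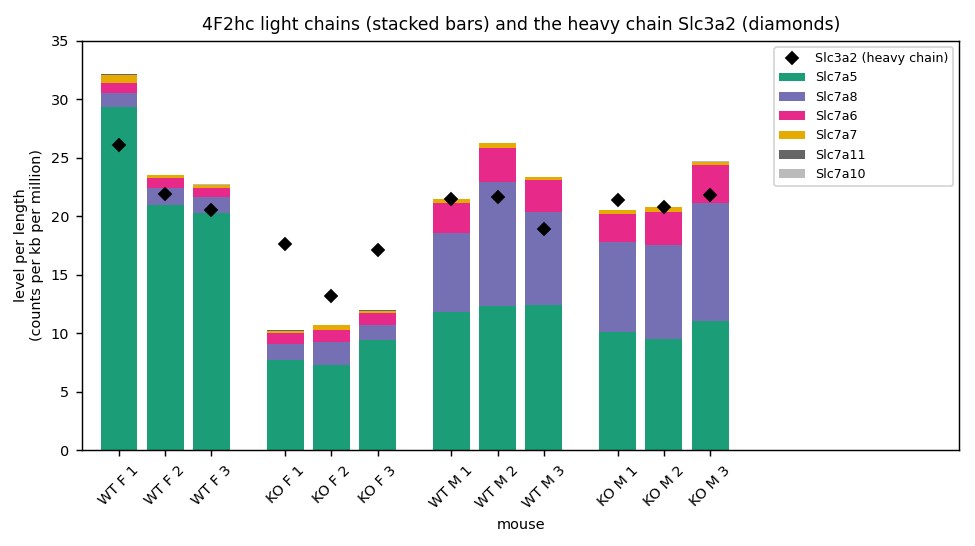
Level per length (CPM per kilobase) of the 6 light chains of 4F2hc, stacked for each mouse, with the level of the heavy chain Slc3a2 as a diamond. The stack falls furthest below the diamond in the 3 knockout females and lies just below it in knockout males 1 and 2, and Slc7a8 and Slc7a6 fill about as much of the male stacks as Slc7a5 does.

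Slc3a1 encodes rBAT, the heavy chain of the cystine carriers of kidney and gut, and was near the detection limit outside knockout females (chr17:85335804-85374794, plus strand). The wild-type females had 6.75, 2.59 and 1.51 normalized counts and the knockout females 41.6, 32 and 57. Wild-type males had 14.6, 6.57 and 7.42 and knockout males 9.33, 1.87 and 6.35. All 3 knockout females were above the 9 other mice, with a log2 fold change of 3.48 (SE 0.64, adjusted p = 0.0013) in females, an interaction of 4.17 (SE 0.88, adjusted p = 0.0072) and −2.86 (SE 0.58, adjusted p = 0.0017) for knockout males against females, the last lost without the 3 libraries with the most adipocyte RNA (adjusted p = 0.0715). Its partners did not accompany it: Slc7a9 had at most 1.94 and Slc7a13 at most 2.72 normalized counts in any mouse. In the same comparison the median log2 fold change was 0.62 over long noncoding RNAs and 0.91 over loci that the annotation lists as awaiting experimental evidence, classes with low counts like Slc3a1, and their relation to it was not tested. Slc3a1 overlaps Prepl on the opposite strand, and whether counting used the strand is not given in the sources used here; Prepl itself had a log2 fold change of −0.24 in knockout females.

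Slc7a1 (CAT1) and Slc7a2 (CAT2) carry arginine, lysine and ornithine, and both fell in knockout females. Slc7a1 gave 5497, 4506 and 4539 normalized counts in wild-type and 2518, 2285 and 2999 in knockout females, a log2 fold change of −0.90 (SE 0.14, adjusted p = 0.0007). In males it gave 3155, 3324 and 2661 and 2420.2, 2636 and 3306, which overlapped, and the interaction was −0.77 (SE 0.20, adjusted p = 0.018). Wild-type males were lower than wild-type females (−0.67 (SE 0.14, adjusted p = 0.0028)), and the knockout sexes were not called apart (0.10 (SE 0.14, adjusted p = 0.6)).

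Slc7a2 differed from Slc7a1 in that its estimate was of the same size in both sexes. Its normalized counts were 661, 676 and 631 in wild-type and 292, 429.8 and 362 in knockout females, a log2 fold change of −0.86 (SE 0.20, adjusted p = 0.005). Wild-type males had 990.1, 1072 and 919 and knockout males 698, 366 and 563, again without overlap, with −0.87 (SE 0.19, adjusted p = 0.11) by edgeR and −0.86 by DESeq2 (adjusted p = 0.0030). The interaction was 0.02 (SE 0.28, adjusted p = 0.98), so that a difference between the sexes was not called. Males were higher in both genotypes, by 0.60 (SE 0.19, adjusted p = 0.028) in wild type and 0.58 (SE 0.20, adjusted p = 0.029) in knockout. The wild-type sex call was lost without any wild-type female or without wild-type male 1 or 2 (adjusted p at most 0.0763 over the alternatives), the knockout sex call without knockout female 1 or knockout male 1 or 3, under upper-quartile scaling, scaling on protein-coding genes and the authors' factors, and in the fit of the compared groups only (at most 0.229), and the call in knockout females was lost with the authors' own normalization factors (−0.55, adjusted p = 0.086). The other cationic members, Slc7a3, Slc7a4 and Slc7a14, were not called in any comparison.

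Among the SLC1 carriers, Slc1a3 (GLAST), a glutamate carrier best known from glia, changed in 4 of the 5 comparisons (chr15:8663604-8741595, minus strand). The normalized counts were 1798, 1957 and 2292 in wild-type females and 1061, 946 and 1248 in knockout females, a log2 fold change of −0.89 (SE 0.12, adjusted p = 0.00032). Wild-type males had 467, 507 and 481 and knockout males 443, 522 and 489, with almost identical means (−0.00 (SE 0.12, adjusted p = 1)). Knockout females lay between the wild-type females and the males, and the interaction was −0.89 (SE 0.17, adjusted p = 0.0052). Males were lower than females by −2.06 (SE 0.12, adjusted p = 1.3e-07) in wild type and −1.16 (SE 0.12, adjusted p = 1.2e-05) in knockout. Of 7 glial and nerve markers, 1 rose and none fell in knockout females. Between the sexes 1 was higher and 1 lower in males of each genotype, while their summed count was lower in males without overlap, at 3359 to 4054 against 4717 to 5225 in wild type and 2815 to 3685 against 4244 to 5239.7 in the knockout. Their part in the Slc1a3 differences was not tested.

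Slc1a4 (ASCT1), which exchanges serine, alanine and cysteine, had 568, 524 and 610.3 normalized counts in wild-type females and 306, 342 and 358 in knockout females. It fell by 1.69-fold, a log2 fold change of −0.76 (SE 0.14, adjusted p = 0.0016). Males had 434, 333 and 291 in wild type and 261, 248 and 276 in knockout, a difference of −0.43 (SE 0.14, adjusted p = 0.25) that was not called although the groups did not overlap, and the interaction was −0.33 (SE 0.20, adjusted p = 0.24). Wild-type males were lower than wild-type females (−0.69 (SE 0.14, adjusted p = 0.0023)). Between the knockout sexes the difference was −0.36 (SE 0.14, adjusted p = 0.062), which was called under upper-quartile scaling, scaling on protein-coding genes, the authors' factors and in the fit of the compared groups only (adjusted p 0.0128 to 0.334 over the alternatives).

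Slc1a5 (ASCT2), the main glutamine exchanger of many cells, did not follow its relative. Its counts were 6345, 6208 and 5888 in wild-type and 6580.3, 5012 and 6744 in knockout females, with −0.01 (SE 0.13, adjusted p = 0.97). In males they were 4821, 4838 and 5079 in wild type and 4749, 3873 and 3762 in knockout, with −0.25 (SE 0.13, adjusted p = 0.49). The call was for knockout males against knockout females, at −0.57 (SE 0.13, adjusted p = 0.0032), and was lost without either set of 3 libraries (adjusted p at most 0.227 over the alternatives). Wild-type males differed from wild-type females by −0.32 (SE 0.13, adjusted p = 0.062), which was called by DESeq2, under RLE and upper-quartile scaling and in 3 further settings (adjusted p 0.0181 to 0.163 over the alternatives).

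Slc1a2 (GLT-1), a further glutamate carrier, rested on 1 library. Wild-type males had 67.6, 69 and 414 normalized counts and knockout males 53.2, 14.1 and 28.1, while females stayed between 78.1 and 118 in both genotypes. The edgeR difference between the males was −2.52 (SE 0.65, adjusted p = 0.14), and it ran from −3.41 to −0.75 over the alternatives. The sex difference in the knockout, −1.41 (SE 0.65, adjusted p = 0.097), was called in 4 of 18 alternatives. The interaction of 2.18 (SE 0.89, adjusted p = 0.085) was called in 3 of 23. Wild-type male 3, the highest, was the library with the most Muc19. Knockout female 3, the other library rich in Muc19, had 78.1 Slc1a2 counts, the lowest of the females. The part of other-gland tissue in the Slc1a2 counts was not tested. Slc1a1 was not called, and Slc1a6 and Slc1a7 were not tested.

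Slc38a1 (SNAT1) and Slc38a2 (SNAT2), sodium-driven carriers of glutamine and alanine, differed between the sexes in opposite directions although their genes lie 43.4 kb apart on chromosome 15. Slc38a1 (chr15:96469298-96541851, minus strand) had 6478, 6123 and 6219 normalized counts in wild-type females and 1770.3, 1488 and 2174 in wild-type males, at −1.79 (SE 0.18, adjusted p = 7e-06) for males against females. Slc38a2 (chr15:96585266-96597894, minus strand) had 8869, 10214 and 10458 and 16594, 19495 and 15367, at 0.80 (SE 0.13, adjusted p = 0.00034). No male overlapped the females for either gene.

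The pattern was the same in knockout mice. There Slc38a1 gave 4157, 2929 and 4607 in females and 1724, 1434 and 1256 in males (−1.41 (SE 0.18, adjusted p = 4.8e-05)), and Slc38a2 gave 8123, 8903 and 8533 and 18668, 18500.0 and 21759 (1.21 (SE 0.13, adjusted p = 1.3e-05)). With genotype, Slc38a1 fell in females by 1.61-fold (−0.69 (SE 0.17, adjusted p = 0.0084)), while its difference in males was −0.30 (SE 0.17, adjusted p = 0.55) and its interaction −0.39 (SE 0.25, adjusted p = 0.26). Slc38a2 was not called with genotype, at −0.21 (SE 0.13, adjusted p = 0.22) in females and 0.20 (SE 0.13, adjusted p = 0.6) in males, apart from females with the authors' factors (adjusted p = 0.0485).

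Slc38a10, a less studied relative that is abundant here, had 5226, 5472 and 5053 normalized counts in wild-type females and 3786, 3622 and 3448 in knockout females. It fell by 0.54 (SE 0.11, adjusted p = 0.0028) on the log2 scale. Males had 6035, 7555 and 6913 in wild type and 7093, 5791 and 6199 in knockout, which overlapped. Males were higher than females by 0.38 (SE 0.11, adjusted p = 0.017) in wild type and 0.81 (SE 0.11, adjusted p = 9.5e-05) in knockout, and the wild-type call was lost without wild-type female 3 or wild-type male 2, without either set of 3 libraries and with the authors' factors (adjusted p at most 0.265 over the alternatives). The interaction of −0.43 (SE 0.16, adjusted p = 0.058) was not called, but was by DESeq2 and by edgeR under RLE scaling, without the 20 most abundant genes, with the authors' factors, with at least 10 counts in every library and without some single mice (adjusted p 0.0101 to 0.175 over the alternatives).

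Slc38a7 and Slc38a9 act at the lysosome, the former in glutamine export and the latter in passing the arginine signal to mTORC1. Slc38a7 was higher in males, with 292, 293 and 321 normalized counts in wild-type females and 571, 673 and 683 in wild-type males (1.09 (SE 0.11, adjusted p = 6.6e-06)), and 345, 346 and 348 and 602, 523 and 536 in the knockout (0.68 (SE 0.11, adjusted p = 0.00027), or 0.0727 with the authors' factors). Its knockout females were above wild-type females without overlap, at 0.20 (SE 0.11, adjusted p = 0.17), called only under upper-quartile scaling (adjusted p = 0.0314). In males the difference was −0.21 (SE 0.10, adjusted p = 0.47). The interaction of 0.41 (SE 0.15, adjusted p = 0.059) was called in 4 of 23 alternatives. Slc38a9 had 615, 669 and 580.2 in wild-type and 867, 759.7 and 825 in knockout females, without overlap, at 0.39 (SE 0.11, adjusted p = 0.013). The males had 766, 627 and 673 and 728, 643 and 617. Its calls in females, for the interaction (0.45 (SE 0.15, adjusted p = 0.047)) and for sex in the knockout (−0.30 (SE 0.11, adjusted p = 0.038)) depended on single mice and, for the last 2, on the settings. All 3 calls were also lost without either set of 3 libraries. The first was lost without wild-type female 1 or 3 or knockout female 1 or 3 (adjusted p at most 0.112 over the alternatives), the second without any library other than knockout male 1 and wild-type male 2, under RLE scaling, without the 20 most abundant genes, without the low-count filter and by DESeq2 (at most 0.532). The third was lost without any knockout female, without knockout male 2 or 3, without the 20 most abundant genes and without the low-count filter (at most 0.578). Slc38a6 was lower in knockout males than in knockout females (−0.49 (SE 0.14, adjusted p = 0.011)), with 1709.6, 1679 and 1680.4 against 2275, 2581 and 2254 counts, a call lost without knockout female 2, without either set of 3 libraries and with the authors' factors (adjusted p at most 0.17 over the alternatives). Its wild-type counts were 2277, 2303 and 1602 in females and 1904, 1543 and 1474 in males, with overlap, a difference called by DESeq2 and under RLE and upper-quartile scaling (adjusted p 0.008 to 0.44 over the alternatives). Slc38a4 and Slc38a5 were tested and not called, with at most 21.9 and 21.1 normalized counts.

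Slc36a4 (PAT4), which carries proline and tryptophan, changed like Slc1a3. Wild-type females had 992, 1027 and 1157 normalized counts and knockout females 621, 715 and 700.2, a log2 fold change of −0.64 (SE 0.13, adjusted p = 0.0021). The males had 303, 344 and 407 in wild type and 368, 398 and 319.6 in knockout, at 0.04 (SE 0.13, adjusted p = 0.93), and the interaction was −0.68 (SE 0.18, adjusted p = 0.018). Knockout females again lay between wild-type females and males, and males were lower by −1.59 (SE 0.13, adjusted p = 1.3e-06) in wild type and −0.91 (SE 0.13, adjusted p = 0.00012) in knockout. Slc36a1 (PAT1), the lysosomal exporter of the family, had 562, 516 and 505 counts in wild-type and 707, 578 and 596 in knockout females and 625, 514 and 694 and 546, 539 and 468 in the males. It was not called in the edgeR fit with TMM scaling. There its interaction was 0.49 (SE 0.18, adjusted p = 0.062) and its sex difference in the knockout −0.28 (SE 0.13, adjusted p = 0.095).

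Slc36a2 (PAT2), known from kidney and fat, was high in 3 libraries. Its normalized counts were 3.37, 1.3 and 127 in wild-type females and 2.31, 9.7 and 1.24 in knockout females. The males gave 9.22, 4.11 and 12.4 in wild type and 12.1, 127 and 40.9 in knockout. The high mice, wild-type female 3 and knockout males 2 and 3, were those with the most adipocyte RNA: Adiponectin (Adipoq) had 14.6, 27.2 and 393 counts in the wild-type females and 17.7, 294 and 167 in the knockout males, against at most 33.9 in the other groups. The summed count of the 7 adipocyte markers was 710.3 to 979 in wild-type males, 1579 to 7523 in knockout males, 1718 to 8672 in wild-type females and 1357 to 2879.6 in knockout females, with no marker at 0 in every library. With all 12 libraries the interaction was −5.96 (SE 1.86, adjusted p = 0.034) and knockout males were above knockout females by 3.66 (SE 1.37, adjusted p = 0.046). The interaction call was lost in 11 of 22 alternatives, among them the replicate block, each wild-type male, knockout female 1 or 3, wild-type female 3 and knockout male 2 or 3 left out. The sex call was lost in 10 of 17, among them the replicate block, upper-quartile scaling, the authors' factors, each knockout female and knockout male 2 or 3 left out. Without these 3 libraries, which are also those with its highest counts and whose removal leaves 1 knockout male, the interaction was 0.38 and the sex difference 1.41. Since the high counts themselves were taken out, these values are a description and test nothing.

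**Figure D4:**
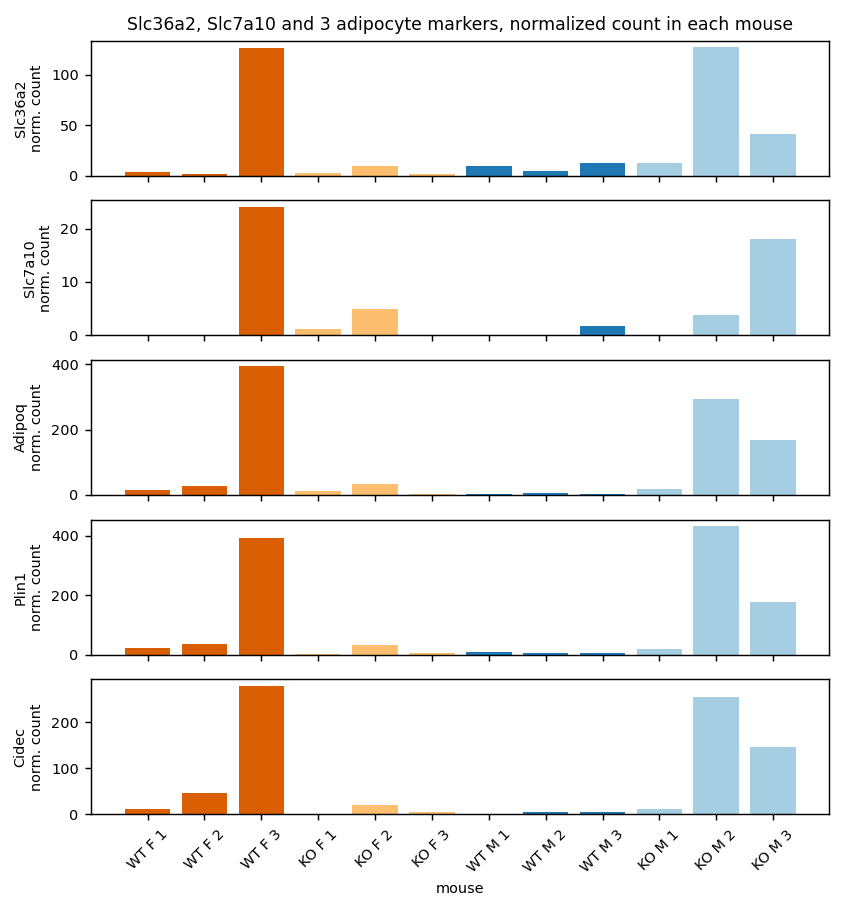
Normalized counts of Slc36a2, Slc7a10 and the adipocyte markers Adipoq, Plin1 and Cidec in each of the 12 mice (bars, each panel from 0). The tallest Slc36a2 bars stand in wild-type female 3 and knockout males 2 and 3, where the marker bars are also tallest.

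Slc43a1 (LAT3) and Slc43a2 (LAT4), which let leucine, phenylalanine and methionine through without an ion gradient, differed between the sexes in opposite directions. Slc43a1 had 538, 482 and 639 normalized counts in wild-type females and 369, 310.4 and 291 in wild-type males (−0.77 (SE 0.17, adjusted p = 0.0039)). Slc43a2 had 1329, 1248 and 1171 and 2568, 3185 and 3665 (1.33 (SE 0.13, adjusted p = 5.8e-06)). Both kept these directions in the knockout, where Slc43a1 had 529, 384 and 486 and 341, 225 and 279 (−0.73 (SE 0.18, adjusted p = 0.005)) and Slc43a2 1413, 1404 and 1222 and 2856, 2384 and 2931 (1.02 (SE 0.13, adjusted p = 4.8e-05)). The knockout sex call of Slc43a1 was lost without either set of 3 libraries (adjusted p at most 0.201 over the alternatives). Neither was called with genotype, apart from Slc43a1 in females with the authors' factors (adjusted p = 0.0442). Slc43a3, known as a purine base carrier and included here by its symbol, was not called.

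**Figure D5:**
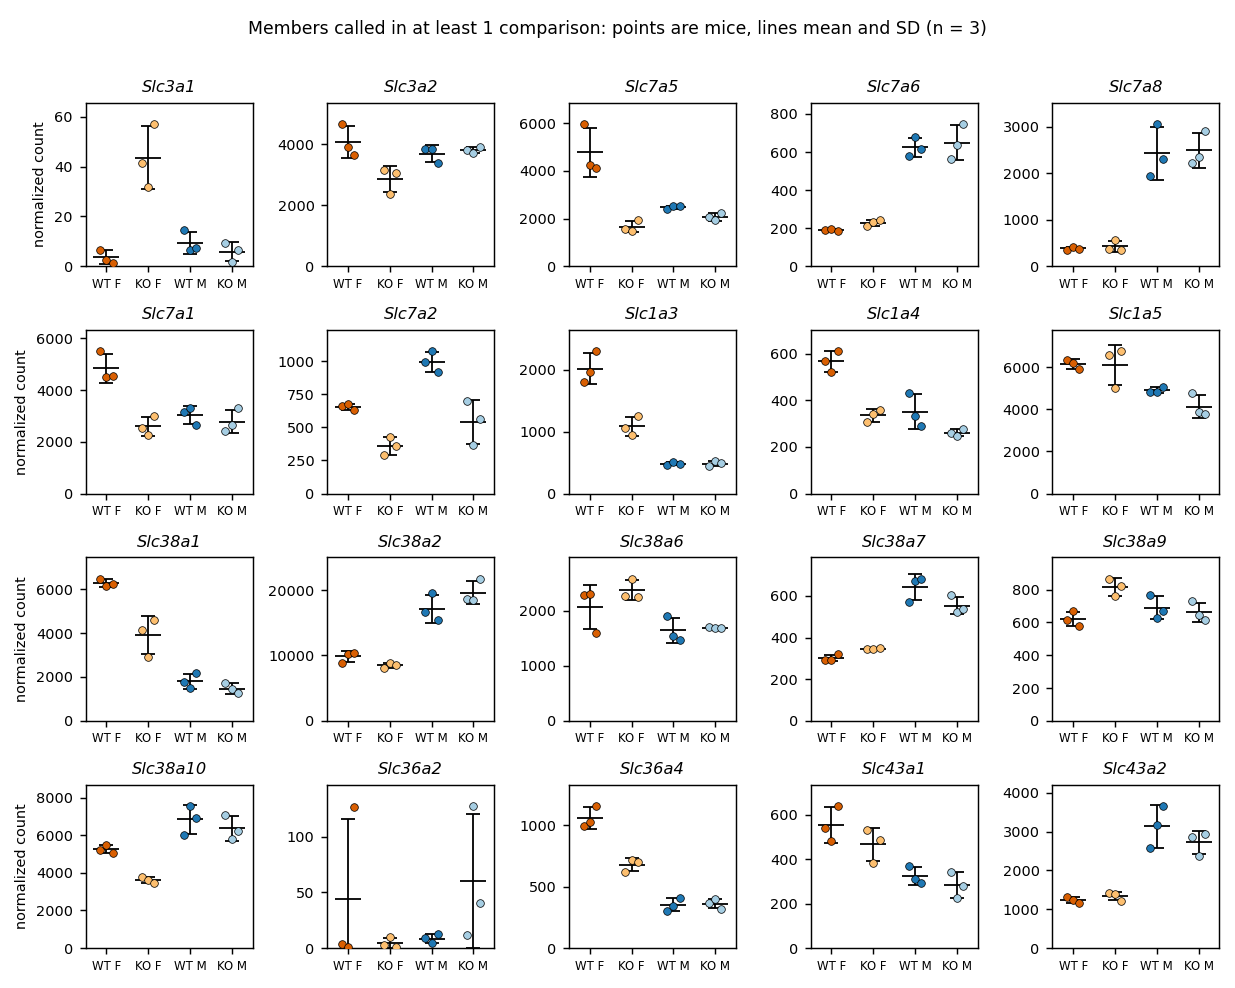
Normalized counts of the 20 members called in at least 1 comparison, with each mouse as a point and the mean and SD of 3 mice as lines, each panel starting at 0. Slc7a5, Slc7a1, Slc1a3, Slc38a1 and Slc36a4 are highest in wild-type females, and Slc7a8, Slc7a6, Slc43a2 and Slc38a2 are higher in both male groups.

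The 11 members that were not tested had at most 20 counts in any library. These were Slc1a6, Slc1a7, Slc36a3, Slc38a3, Slc38a8, Slc38a11, Slc7a9, Slc7a10, Slc7a12, Slc7a13 and Slc7a15, and they were not detectable or barely so at this depth. A further 11 were tested and called in no comparison, and 7 of all tested members stayed under 50 counts in every library.

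Other genes of amino acid handling also changed in knockout females, counted on lists of known pathway genes, beside 19.3% lower and 17.6% higher over all genes tested. The lists were chosen with earlier results of these data known, so that their counts here and below are a description and test nothing. The acinar markers described above fell in the same comparison (4 of 12), and their part in these lists was not tested. Of 24 genes of the ATF4 response, the program that cells switch on when amino acids run short or protein folding is strained, 14 fell and 1 rose, with a median log2 fold change of −0.51. The most clearly lowered were the alanine aminotransferase Gpt2 (−0.92 (SE 0.10, adjusted p = 0.00016)) and the proline synthesis gene Aldh18a1 (−0.89 (SE 0.10, adjusted p = 0.00019)). The gene that rose was the amino acid sensing kinase Eif2ak4 (0.81 (SE 0.13, adjusted p = 0.00066)). Of 16 genes of glutamate, glutamine and glutathione metabolism 8 fell and none rose, led by glutamine synthetase Glul (−1.33 (SE 0.13, adjusted p = 0.0001)). In branched-chain amino acid breakdown 7 of 11 fell and 1 rose, with Ppm1k, the phosphatase that activates the branched-chain dehydrogenase, at −0.73 (SE 0.08, adjusted p = 0.00015) and the transaminase Bcat2 at −0.56 (SE 0.10, adjusted p = 0.0013).

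For mTORC1 and its amino acid sensors, 10 of 32 genes fell and 4 rose, again beside 19.3% and 17.6% of all genes. Sec13 (−0.75 (SE 0.12, adjusted p = 0.00061)) and the Ragulator subunit Lamtor5 (−0.98 (SE 0.17, adjusted p = 0.001)) fell most clearly, and Depdc5 (0.77 (SE 0.20, adjusted p = 0.0088)), part of the machinery that restrains mTORC1, rose. Among the amino acid carriers of other families, 2 of 6 SLC6 genes fell and 1 rose, 5 of 15 carriers of mitochondria and lysosomes fell and 1 rose, and 1 of 6 further plasma membrane carriers fell. Slc6a14, a carrier of broad specificity, fell by 2.05-fold (−1.04 (SE 0.19, adjusted p = 0.0012)), and the mitochondrial Slc25a44, which imports branched-chain amino acids, by 1.73-fold (−0.79 (SE 0.10, adjusted p = 0.00023)). No gene of these lists was called between knockout and wild-type males by edgeR, and DESeq2 called 4 of them.

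In wild-type males against wild-type females, 15 of the 24 ATF4 response genes were lower and 1 was higher, beside 16.0% and 20.5% of all genes. The acinar markers moved with them, with 7 of 12 lower, and their part was not tested. The lower ones included Gpt2 (−1.38 (SE 0.10, adjusted p = 6.5e-07)) and the proline synthesis gene Pycr1 (−1.60 (SE 0.12, adjusted p = 7.1e-07)), and the higher one was Ddit4 (1.02 (SE 0.16, adjusted p = 0.00035)). Of the 32 mTORC1 genes 9 were higher and 6 lower, and the arginine sensor Castor1 rose most clearly, with 42.7, 33.7 and 31.6 normalized counts in wild-type females and 214, 374 and 172 in wild-type males (2.80 (SE 0.32, adjusted p = 2.1e-05)). The peptide carrier Slc15a1 showed a wider gap than any of the 31 tested members, with 16.9, 20.7 and 31.6 in females and 715, 1244 and 894 in males (5.39 (SE 0.33, adjusted p = 1.4e-07)). Gclc, which makes the first step of glutathione synthesis, was higher in males (2.13 (SE 0.24, adjusted p = 1.7e-05)), the creatine carrier Slc6a8 was higher (1.61 (SE 0.08, adjusted p = 3.3e-08)) and Slc6a14 was lower (−2.21 (SE 0.19, adjusted p = 2.3e-06)). In knockout mice Castor1 (3.24 (SE 0.32, adjusted p = 6.7e-06)), Slc15a1 (4.88 (SE 0.31, adjusted p = 2.5e-07)), Gclc (2.11 (SE 0.24, adjusted p = 1.9e-05)) and Slc6a8 (1.49 (SE 0.08, adjusted p = 1e-07)) were again higher in males, and Slc6a14 (−1.47 (SE 0.19, adjusted p = 6.1e-05)) lower.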

How the data were processed

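Bulk RNA-sequencing of 12 submandibular glands was analysed. The authors made the estimated counts with Salmon 1.10.1 (Gencode M35 transcripts, GRCm39) and deposited them per gene. The authors also deposited a normalized signal, in which each count is divided by a factor for its gene and library; how these factors were made is not given in the sources used here, and they served only as an alternative. The labels name polyA RNA, whereas the methods describe stranded libraries depleted of ribosomal RNA.

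Counts were rounded and fitted with edgeR 4.0.16 (limma 3.58.1, R 4.3.3): TMM scaling, filterByExpr at its defaults, 1 mean for each group over all 12 libraries, quasi-likelihood tests of 5 contrasts, and Benjamini-Hochberg adjustment over 17893 genes with a threshold of 0.05. The study's methods name DESeq2, which was run as an alternative (1.42.0). An SE is the absolute log2 fold change over the square root of F. Normalized counts are scaled to the mean effective library size. Levels divide counts by the length of the longest protein-coding transcript. Symbols, positions and lengths came from Gencode M39 on GRCm39, which holds 55563 of the 56065 identifiers. Promoter bases were read from the GRCm39 genome. The steps were tested on simulated counts first. Figures used Python 3.11.15 and matplotlib 3.10.9.

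The members and gene lists were chosen with earlier results of these data known. Values for each mouse are given for members called in any contrast, for the highest of each family and for the heavy chains and their light chains. Of the pathway lists, up to 2 genes for each direction and contrast are named, those with the smallest adjusted p. Alternatives were RLE and upper-quartile scaling, scaling on protein-coding genes or without the 20 most abundant genes, the authors' factors, no filter or at least 10 counts in every library, fits on the compared groups only, the replicate number as a block, each library left out, and exon-union lengths. Replicates are separate mice.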

Additional observations from a re-analysis of the deposited data

Results flagged for a closer look

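For 8 transporters the effect of the knockout differed between females and males by the interaction term of the edgeR fit. These were 25.8% of the tested members, 6.45% with a positive and 19.4% with a negative term, beside 13.4% and 12.4% of all genes. The term is given here as the log2 change in females minus that in males. It was −1.27 for Slc7a5 (adjusted p = 0.0032), −0.89 for Slc1a3 (0.0052), −0.77 for Slc7a1 (0.018), −0.68 for Slc36a4 (0.018) and −0.56 for Slc3a2 (0.034). For these 5 the 3 knockout females lay below the 3 wild-type females, while in males the genotypes overlapped for all but Slc7a5, whose knockout males were also below wild type. Of all 17893 genes, 4312 lay below and 4506 above in this way in females, and 1423 and 1165 in males. The 5 were picked by the interaction call on the same counts, so that their separation is a description and no further support. The term was 4.17 for Slc3a1 (0.0072), which had at most 14.6 normalized counts outside knockout females, and 0.45 for Slc38a9 (0.047). It was −5.96 for Slc36a2 (0.034), whose highest counts fell in the 3 libraries with the most adipocyte RNA. All 8 calls were lost when either set of 3 libraries (other-gland genes or adipocyte RNA) was left out. Both of these fits called hardly any gene for this term, and the latter leaves 1 knockout male. Over all alternatives the term ran from −1.465 to −1.172 for Slc7a5, −1.09 to −0.51 for Slc1a3 and −0.97 to −0.635 for Slc7a1. It ran from −0.83 to −0.59 for Slc36a4, −0.71 to −0.48 for Slc3a2 and 3.16 to 4.92 for Slc3a1. For Slc38a9 it ran from 0.23 to 0.83, and for Slc36a2 from −7.39 to 0.38. Of 23 alternatives the Slc38a9 call was lost in 16 and the Slc3a2 call in 8. The Slc36a2 call was lost in 11 of 22, including the replicate block and 8 of the 12 libraries left out singly (adjusted p at most 0.91).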

How the results depend on the processing

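Of the 50 member calls over the 5 comparisons, 29 held under all alternatives run, and 9 of these were among the 11 calls in knockout females. Knockout against wild-type males gave 2 members without the low-count filter and by DESeq2, and 0 to 2 with 1 library left out, the 2 without knockout male 1. Over all genes 18 were higher and 24 lower with the filter and all 12 libraries. Without the filter they were 222 and 167, by DESeq2 216 and 176, and without knockout male 1 they were 323 and 312. On the pathway lists this comparison called 1 gene with the authors' factors, 2 without the filter, 4 by DESeq2, and 0 to 6 with 1 library left out, the 6 without knockout male 1. For the genotype difference in females minus that in males, leaving out 1 library gave 5 to 11 members (5 without wild-type male 1 or 3 or knockout male 2 or 3). The list genes were 22 to 45 (22 and 24 without wild-type male 1 and 3). Over all genes 2390 were higher and 2214 lower for this difference with all 12 libraries. Without wild-type male 1 they were 1284 and 1100, and without wild-type male 3 they were 1607 and 1291. Without knockout male 2 they were 1587 and 1603, and without knockout male 3 they were 1519 and 1465. Without wild-type male 2 they were 2695 and 2716. Further alternatives were chosen after seeing the data. Leaving out the 3 libraries with other-gland genes or the 3 with the most adipocyte RNA gave 0 members and 0 list genes for that difference, from 9 libraries. Without the latter set the log2 value of Slc36a2 for that difference was 0.38 instead of −5.96, which tests nothing, since these are the libraries with its highest counts. The cause of the other shifts was not tested. For knockout males against knockout females, 10 members were called without the latter set, and the list genes were 37 and 30 without the former and the latter. With exon-union lengths, Slc7a5 made up 93.3% (wild-type females), 82.2% (knockout females), 63.7% (wild-type males) and 58.6% (knockout males) of the summed light chains, and Slc7a8 3.24%, 9.10%, 25.6% and 29.2%. The labels give no shared litter or day for a replicate number, and libraries of the same number correlated at −0.13 to 0.27 after removal of group means. The replicate block gave 11, 0, 7, 14 and 16 members (knockout females, knockout males, their difference, sex in wild type, sex in knockout) and 1 list gene in males. Counts under 50 limit 7 tested members.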
